A study of Mus musculus with 14 samples.

Results

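The change in macrophage fractions between day 8 and day 14 was examined in tumours grown from 4T1 cells that had been exposed to the inhibitor GSK269962A. 4T1 is a mouse mammary carcinoma line, and GSK269962A is a small-molecule kinase inhibitor. Culture with 5 µM GSK269962A lasted 5 days, after which the cells were injected into Balb/c mice, and F4/80+ cells were later collected from the established tumours with magnetic beads and sequenced. The comparison used the libraries whose titles name GSK and day 14 against those whose titles name GSK and day 8, which makes 4 against 3, or 7 of the 14 libraries of the series. The other 7 libraries, 3 from day 8 and 4 from day 14, came from tumours of 4T1 cells cultured with the vehicle DMSO and serve here as the same time course without the inhibitor. All groups share the cell line, the mouse strain and the F4/80 selection, and the inhibitor was given to the tumour cells in culture, not to the mice. Nothing in the labels ties a library to its own mouse, and p-values therefore measure only the spread between these samples, which may be technical. They also give no collection or sequencing dates, so the age of the tumour cannot be told apart from the day of handling.

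Tumour-associated macrophages arise largely from blood monocytes that enter the tumour and mature there. They present antigen on MHC class II, secrete cytokines, matrix proteases and angiogenic factors, and clear dead cells through lysosomes. F4/80 is the protein of Adgre1, a surface receptor of mature mouse macrophages, and the beads select on that protein.

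The deposited values are normalised and on a log2 scale, so a difference of 1 is a 2-fold change. Of 24556 genes in the table, 11886 reached a value of 3.32 (10 when unlogged) in at least 3 of the 14 libraries and were tested. All 16 pan-macrophage markers reached that value, and their mean ran from 11.07 to 11.42 in the GSK day 8 libraries and from 11.51 to 11.74 in the day 14 libraries, without overlap. Adgre1 itself stood at 8.94, 9.56 and 9.93 on day 8 and at 10.06 to 10.31 on day 14, a change of 0.71 that did not pass (SE 0.22, limma adjusted p = 0.0607). RNA of markers of other cell types was detected as well: 14 of 20 epithelial markers in the table reached the minimum in a GSK library. So did 17 of 19 endothelial, 15 of 24 fibroblast, 14 of 19 dendritic cell, 12 of 22 neutrophil and 7 of 27 T and NK cell markers. The other 20 T and NK cell markers, among them Trac, Trbc1 and Lck, did not. Macrophages express some of these markers too, and whether the other cells themselves were present was not tested. The mean of the tested epithelial markers was 6.64, 6.29 and 5.44 in GSK day 8 libraries 1 to 3 and 4.69 to 4.91 on day 14. Its part in the results below was not tested as a cause, and its values are given beside them. Reads of the ribosomal RNA locus were assigned mostly to Gm42418 in GSK day 8 library 1 and mostly to AY036118 in the other 6 GSK libraries, so library 1 stands apart from them in that respect. Gm42418 was also the higher in DMSO day 8 libraries 1 and 3 and in DMSO day 14 libraries 2 and 4. In these bulk fractions, a change in the RNA of each macrophage and a change in which cells were collected cannot be told apart.

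**Figure D1:**
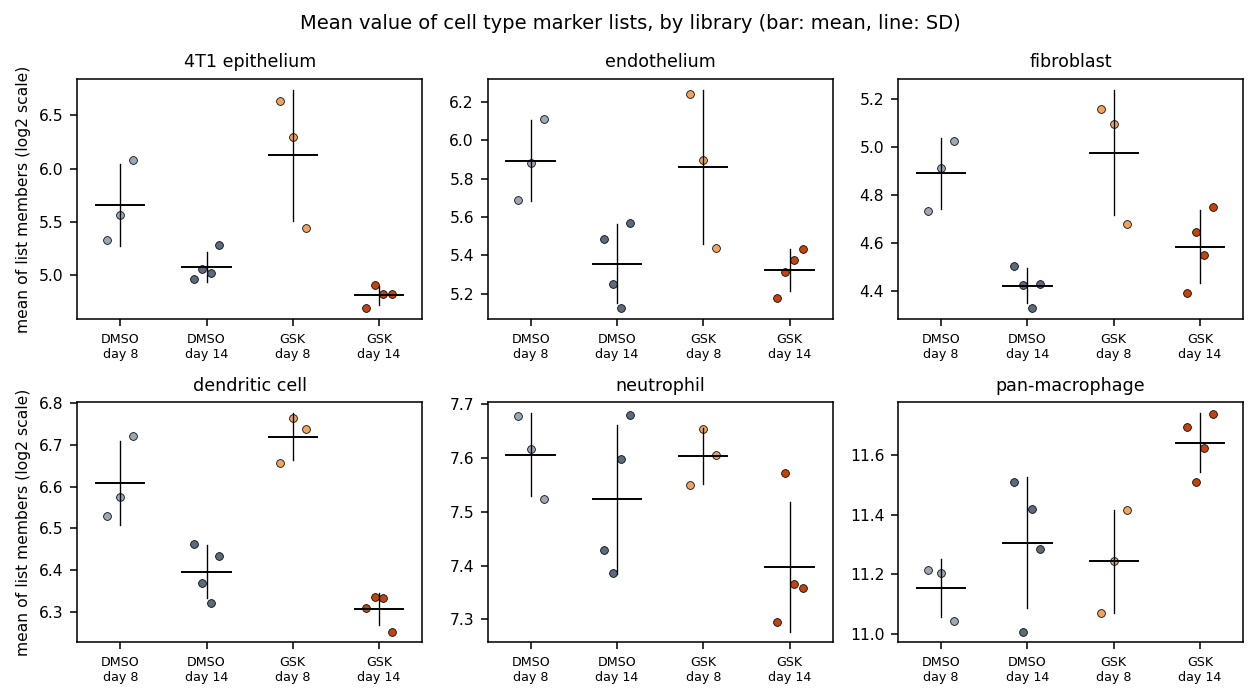
Mean deposited value (log2 scale) of the tested members of 6 marker lists in each library, by pre-treatment and day; points are libraries, bars group means and lines SDs. The epithelial mean falls from 6.64, 6.29 and 5.44 in the GSK day 8 libraries to between 4.69 and 4.91 on day 14, while the pan-macrophage mean is at least 11.51 in every GSK day 14 library and at most 11.42 on day 8.

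Between day 8 and day 14, 833 genes passed the threshold in GSK tumours (limma, adjusted p under 0.05), which is 7.01% of the genes tested. Of these, 363 rose (3.05%) and 470 fell (3.95%), and 200 changed at least 2-fold, 84 of them upwards. The median change over all tested genes was 0.01. The day 8 and day 14 libraries did not overlap for 3602 genes (30.3% of those tested) and for 815 of the 833. Genes named below for the largest change were picked only among those without overlap, so their separation adds nothing to the call. Every one of the 833 kept its direction when each of the 7 GSK libraries was left out in turn. For the 815 without overlap no other outcome was possible, and the genes had been called on these same values. The number past the threshold depended on single libraries. It was 112 without GSK day 8 library 1, 237 without day 8 library 2, 1218 without day 8 library 3, and 247, 378, 449 and 170 without day 14 libraries 1 to 4. A core of 93 genes, 37 higher and 56 lower, passed in all 7 of these fits, and calls described below as held belong to it. Of 117 called genes that were followed singly, 77 lost the call when the first GSK day 8 library was left out, 69 when the fourth day 14 one was and 10 when the third day 8 one was. A named gene's call that is not described as held was lost in at least 1 of the 7 fits. With the epithelial mean added to the fit as a covariate 1 gene passed (399 at an unadjusted p under 0.05). That mean does not overlap between the days, and the SE of the Mmp9 change went from 0.21 to 0.41 in that fit. Under that covariate, 66 of the 117 genes had a change more than 1.5 times smaller or of the other sign, 2 had one more than 1.5 times larger and 49 lay between. Of the 36 among them that held, 15 shrank by more than 1.5 times, and their values are given where each gene is described.

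The protein-coding gene with the smallest p was Mmp9, a secreted gelatinase that degrades basement membrane collagen and that macrophages and neutrophils both make. Its values were 14.27, 14.39 and 14.53 on day 8 and 12.15, 12.28, 11.74 and 11.54 on day 14. All 4 late libraries lay below all 3 early ones, as the rule for naming the largest changes required. The change was -2.47 (SE 0.21, 5.54-fold lower, limma adjusted p = 1.57e-05), and the call held. Mmp9 (ENSMUSG00000017737) lies at chr2:164940780-164955850 of GRCm38. It was -2.41 with the epithelial mean as a covariate (SE 0.41, unadjusted p = 2.97e-05, adjusted p = 0.177). Mmp9 is also on the neutrophil list, of which 2 of 12 tested members fell (Mmp9 and Hdc) and 0 rose, with a median change of 0.07. The neutrophil mean was 7.55, 7.65 and 7.61 on day 8 and 7.29, 7.57, 7.37 and 7.36 on day 14. Of the 22 neutrophil markers in the table, 12 reached the minimum in a GSK library, among them S100a8, S100a9, Csf3r, Retnlg and Mmp8, and 10 did not, among them Ly6g, Cxcr2 and Ltf. The part of neutrophils in the Mmp9 change was not tested.

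Of 26 matrix and angiogenic factors tested, 4 fell (Mmp9, Pgf, Timp3 and Hbegf) and 2 rose (Vegfa and Mmp2), with a median of -0.06. Pgf, placental growth factor, a ligand of the VEGF receptor Flt1, stood at 10.81, 10.25 and 10.14 on day 8 and at 8.88, 8.48, 8.82 and 8.06 on day 14. Every late library was more than a full log2 unit below every early one. Its change was -1.84 (SE 0.22, 3.57-fold lower, limma adjusted p = 4.99e-04). Inhba, which encodes the subunit of activin A, was not on a list and was picked out after its values were seen: it went from 10.86, 10.59 and 10.56 to between 9.16 and 9.57 (-1.32, SE 0.18, adjusted p = 0.00169). Both calls held. Vegfa, the main angiogenic ligand of the VEGF family, moved the other way, from 9.62, 9.44 and 9.60 to 10.25, 10.28, 10.13 and 10.49. The early and late values of Vegfa were separate, and it rose by 0.74 (SE 0.16, limma adjusted p = 0.0158) but lost the call in 3 of the 7 leave-one-out fits. Mmp2, another gelatinase, was low throughout (3.58 to 3.83 on day 8, 4.08 to 4.43 on day 14), and Timp3, a protease inhibitor that stromal cells also make, followed the epithelial order across the early libraries with 6.89, 6.24 and 5.59. Tgfb1, the regulatory cytokine, changed by -0.02 (SE 0.21) and did not pass.

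Several inflammatory mediators fell. Tnf, the central inflammatory cytokine (chr17:35199381-35202007, GRCm38), stood at 9.35, 9.25 and 9.16 on day 8 and at 7.38, 7.64, 7.33 and 7.29 on day 14. The gap between the days was several times wider than the spread within either day. The change was -1.84 (SE 0.20, 3.59-fold lower, limma adjusted p = 2.64e-04), it held, and it was -1.49 with the epithelial covariate (SE 0.37). Among 22 chemokines tested, 0 rose and 5 fell, with a median of -0.24. The neutrophil attractants Cxcl5 and Cxcl1 were among them. Cxcl5 went from 5.80, 6.15 and 6.19 to 3.97, 5.23, 4.15 and 4.47 (-1.59, SE 0.27, adjusted p = 0.00484), and the call held. Cxcl1 had a scattered start, 9.39, 10.43 and 10.38, and a narrow end, 9.04, 9.09, 9.07 and 9.01. Its change of -1.01 (SE 0.26, limma adjusted p = 0.0314) passed only with all libraries or without GSK day 8 library 1, and the adjusted p reached 0.109 in the other leave-one-out fits. The eosinophil attractant Ccl24 fell by 1.19 (SE 0.21), from 12.16 to 12.51 on day 8 to 10.59 to 11.50 on day 14, and held. With the epithelial covariate its change was -0.79 (SE 0.39). Ccl4, an inflammatory chemokine, fell by 1.05 (SE 0.21) and passed in every leave-one-out fit but that without GSK day 8 library 1 (adjusted p = 0.059). Pf4, a chemokine of platelets and resident macrophages, fell by 0.79 (SE 0.22). The monocyte attractant Ccl2 was not separated between the days (7.67, 8.89 and 9.31, then 8.08 to 8.83).

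Of 26 NF-kB targets tested, 3 fell (Tnf, Ccl4 and Cxcl1), 1 rose (Zc3h12a, an RNase that degrades inflammatory transcripts, 0.54, SE 0.16) and the median was -0.14. Il1b, another target of that pathway and a main product of inflammatory macrophages, was high throughout, at 13.12, 13.56 and 13.72 on day 8 and 13.71 to 14.11 on day 14, with overlap between the days and a change of 0.45 that did not pass (SE 0.17, limma adjusted p = 0.12). Tnf and Il1b are both on the classical activation list, where 2 of 19 rose and 1 fell (median 0.09). The members that rose were Cd38, an ectoenzyme that breaks down NAD (1.07, SE 0.21), and Cd86, a co-stimulatory ligand of T cells (0.99, SE 0.23). Cd86 was 7.202 in GSK day 8 library 1, against 8.33 and 8.31 in the other early libraries and 8.70 to 9.26 late. Nos2, the inducible nitric oxide synthase, stayed between 3.596 and 4.31 in all 7 libraries (0.31, SE 0.17, not past the threshold). The list of interferon-response genes had 3 higher, among them Ifi44 and Slfn5, and 2 lower of 38, with a median of -0.02. Rsad2, an antiviral enzyme of that list, held its fall of 1.10 (SE 0.18), from 10.36 to 10.87 on day 8 to 9.35 to 9.68 on day 14.

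The Cxcl1 promoter is shown because Cxcl1 is a textbook NF-kB target that fell here. The window below, from RefSeq on GRCm38.p6, covers chr5:90890995-90891294 on the plus strand, 250 bases before to 50 after the start, and capitals mark overlapping matches of the NF-kB consensus on the 2 strands, the first at 71 bases before the start.
Cxcl1: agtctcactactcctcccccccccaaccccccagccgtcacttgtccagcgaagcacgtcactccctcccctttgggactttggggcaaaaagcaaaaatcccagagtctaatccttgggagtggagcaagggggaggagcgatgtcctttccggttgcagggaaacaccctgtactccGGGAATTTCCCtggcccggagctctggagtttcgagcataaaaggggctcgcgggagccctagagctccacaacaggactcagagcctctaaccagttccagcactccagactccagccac
The consensus was found in 4.51% of all 32851 promoter windows and in 12 of the 22 NF-kB targets that have a window. A gene counts when any of its windows matches, so the share of windows and the count of genes are not on the same unit. Among those 12 was Cxcl1 but not Tnf, and Bcl3, Ier3, Nfkbia and Tnfaip3 were others, none of which passed in either direction. A match is a run of letters in this window and says nothing of binding in these cells.

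**Figure D2:**
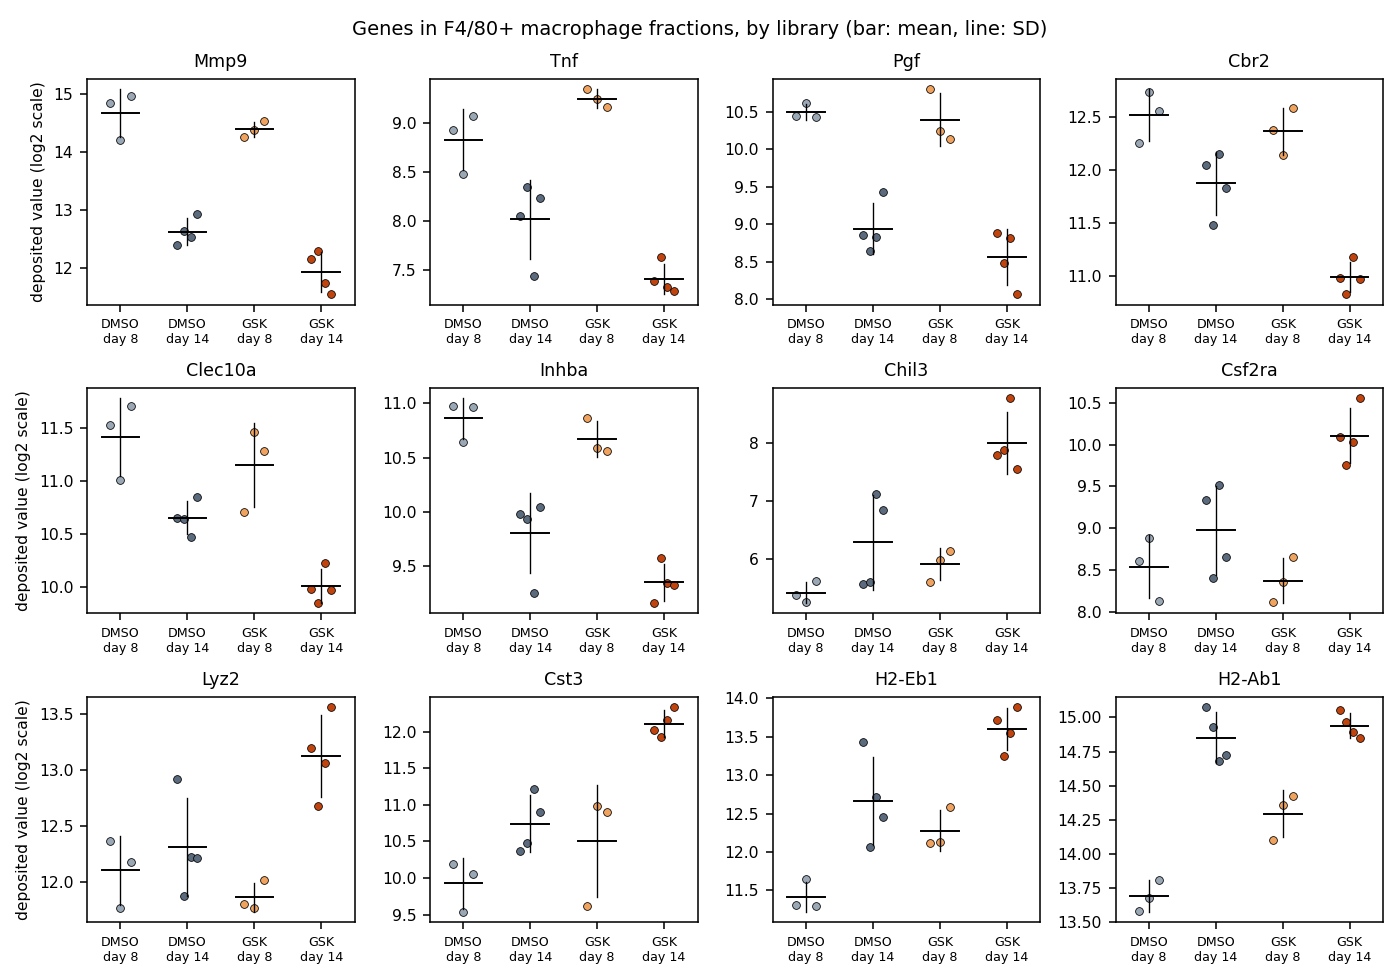
Deposited values (log2 scale) of 12 genes in each library, by pre-treatment and day; points are libraries, bars group means and lines SDs. In GSK tumours Mmp9, Tnf, Pgf, Cbr2, Clec10a and Inhba are lower and Chil3, Csf2ra, Lyz2, Cst3, H2-Eb1 and H2-Ab1 higher in every day 14 library than in any day 8 library. Genes named for the largest change were picked for such separation, which 30.3% of all tested genes show.

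Genes of antigen presentation on MHC class II rose in part. This pathway displays peptides from engulfed material to CD4+ T cells: the alpha and beta chains form the groove, Cd74 and the H2-DM proteins guide its loading, and lysosomal enzymes such as Ctss and Ifi30 prepare its cargo. H2-Eb1, a beta chain gene (chr17:34305867-34316674, GRCm38), stood at 12.12, 12.13 and 12.58 on day 8 and at 13.71, 13.25, 13.54 and 13.89 on day 14. Its late values were all above its early values, and it rose by 1.32 (SE 0.25, 2.50-fold, limma adjusted p = 0.00986), or 0.71 with the epithelial covariate (SE 0.46). H2-Aa, an alpha chain gene, went from 12.36, 13.20 and 13.30 to 14.09, 13.92, 13.72 and 14.06 (1.00, SE 0.20, adjusted p = 0.0112), or 0.43 with that covariate (SE 0.35). H2-Ab1, among the most abundant transcripts of these fractions, went from 14.10, 14.36 and 14.42 to 15.05, 14.97, 14.89 and 14.85 (0.65, SE 0.15, adjusted p = 0.022). The early and late libraries of both genes were separate. Ctss (0.60, SE 0.16) and Ifi30 (0.97, SE 0.27) also rose, so that 5 of 11 tested members were higher, 1 was lower, and the median was 0.45. The lower member was H2-DMb2, a beta chain of the peptide loader, at -0.78 (SE 0.17). The invariant chain Cd74 was separate between the days, at 15.11 to 15.29 and then 15.57 to 15.69, but its change of 0.45 did not pass (adjusted p = 0.135).

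None of the 6 class II calls held in all leave-one-out fits. Without GSK day 8 library 1, 0 members passed and the median was 0.51. The limma adjusted p was then 0.0528 for H2-Eb1 and 0.0561 for H2-Aa, which both passed in the other 6 fits. That library had the most epithelial signal and was also the only GSK library with Gm42418 above AY036118. The part of either trait in these calls was not tested, and in 1 library the 2 cannot be told apart. The H2-Ab1 call also ended without GSK day 8 library 2 or GSK day 14 library 1, 2 or 4. In the DMSO time course, which shares none of these libraries, 4 members rose (Cd74, H2-Aa, H2-Ab1 and H2-Eb1), by 1.01 to 1.25, and 0 fell. H2-Ab1 rose by 1.16 there (SE 0.15, limma adjusted p = 0.00266). Of 19 genes of MHC class I processing, 1 rose and 1 fell, Tapbpl and Tapbp, which both edit the peptides bound by class I, and the median was 0.30. Dendritic cells also carry MHC class II. Of 14 tested dendritic cell markers 0 rose and 4 fell, with a median of -0.26, and their mean went from 6.66 to 6.77 on day 8 down to 6.25 to 6.34 on day 14. Batf3, a transcription factor of cross-presenting dendritic cells, fell by 1.13 (SE 0.26). Fscn1, an actin bundler of mature dendritic cells that epithelial tumour cells also express, fell by 1.54 (SE 0.25) and held. With the epithelial covariate the Fscn1 change was -0.57 (SE 0.40). Of the 19 dendritic cell markers in the table, 14 reached the minimum in a GSK library, among them Xcr1, Zbtb46, Ccr7 and Siglech, and 5 did not (Cd209a, Clec9a, Dpp4, Flt3 and Itgae). The part of dendritic cells in the class II values was not tested.

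The promoters of H2-Aa and H2-Eb1 are shown because both genes rose in either time course and class II genes share a promoter element that holds the CCAAT motif in inverted form. Both windows are from RefSeq on GRCm38.p6: chr17:34287774-34288073 on the minus strand for H2-Aa and chr17:34305617-34305916 on the plus strand for H2-Eb1. Capitals mark CCAAT or its reverse complement ATTGG.
H2-Aa: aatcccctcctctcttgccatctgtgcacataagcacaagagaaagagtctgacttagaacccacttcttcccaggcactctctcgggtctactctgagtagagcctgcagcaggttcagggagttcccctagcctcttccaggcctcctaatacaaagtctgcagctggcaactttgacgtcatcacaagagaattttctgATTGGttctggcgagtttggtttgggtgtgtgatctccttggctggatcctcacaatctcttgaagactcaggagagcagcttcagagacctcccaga
H2-Eb1: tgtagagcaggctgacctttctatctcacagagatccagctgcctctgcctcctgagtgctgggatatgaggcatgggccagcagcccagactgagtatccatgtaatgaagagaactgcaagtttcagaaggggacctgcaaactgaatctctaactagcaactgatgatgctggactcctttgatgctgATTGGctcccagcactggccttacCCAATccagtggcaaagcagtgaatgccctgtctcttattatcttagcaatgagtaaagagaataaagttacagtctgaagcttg
The first ATTGG begins 48 bases before the start in H2-Aa and 59 bases before it in H2-Eb1, which has a CCAAT at 35 bases as well. CCAAT on either strand was found in 6 of the 8 class II list members that have a window, including H2-DMb2, which fell, and in 37.4% of all windows. The first count is of genes with a match in any window and the second of single windows, so they are not on the same unit.

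Several monocyte and pan-macrophage genes rose. Of 14 tested monocyte-list genes 4 rose and 0 fell (median 0.50), and of 16 pan-macrophage markers 3 rose and 1 fell (median 0.52). Without GSK day 8 library 1 each list had 1 higher, 0 lower and a median of 0.36. With the epithelial covariate 0 members passed, and the medians were -0.07 for the monocyte list and -0.09 for the pan-macrophage list. Chil3, a chitinase-like secreted protein of monocytes and alternatively activated macrophages (chr3:106147554-106167564, GRCm38), stood at 5.60, 5.98 and 6.13 on day 8 and at 7.80, 7.87, 8.77 and 7.55 on day 14. The lowest late library was more than 1 log2 unit above the highest early one. It rose by 2.09 (SE 0.35, 4.27-fold, limma adjusted p = 0.00482), and the call held. Of the 31-base words of Chil3, 41.5% occur in another gene and 28.9% in Chil4, so reads could be split between them. Ccr2, the receptor that brings monocytes out of the marrow, rose by 0.91 (SE 0.23), and Cx3cr1, the fractalkine receptor of monocyte-derived macrophages, by 1.15 (SE 0.26), from 6.99 to 7.50 on day 8 to 8.02 to 8.74 on day 14. Both were lost in some leave-one-out fits, Ccr2 in 5 and Cx3cr1 in 3. Lyz2, lysozyme, which marks myeloid cells, went from 11.81, 11.77 and 12.01 to 13.20, 12.68, 13.06 and 13.56 and held (1.26, SE 0.23, adjusted p = 0.00826); 32.8% of its words are shared with Lyz1. Lgals3, a galectin that macrophages and carcinoma cells both make, was the pan-macrophage marker that fell (-0.62, SE 0.16).

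The myeloid genes with the largest rise outside those lists were the alpha chain of the GM-CSF receptor and cystatin C. Csf2ra, that alpha chain, stood at 8.12, 8.36 and 8.66 on day 8 and at 10.09, 9.76, 10.03 and 10.55 on day 14. It was more than 1 log2 unit higher in every late library, rose by 1.73 (SE 0.26, 3.32-fold, limma adjusted p = 0.00268), and held. With the epithelial covariate its change was 0.91 (SE 0.45, unadjusted p = 0.0604). Cst3, a secreted inhibitor of cathepsins, stood at 9.62, 10.99 and 10.90 and then at 12.02, 11.92, 12.17 and 12.34. GSK day 8 library 1 was the lowest, by more than 1 log2 unit, and the rise of 1.61 (SE 0.29, 3.05-fold) held without it, at an adjusted p no higher than 0.0295 in the leave-one-out fits. It was 0.93 with the epithelial covariate (SE 0.52). Other genes of the same size were Mgst1, a membrane glutathione transferase (1.61, SE 0.28), Rmc1, a component of the lysosomal Mon1-Ccz1 complex (1.47, SE 0.24), and Pid1, an adaptor of insulin signalling (1.33, SE 0.16), and all 3 held. The Mgst1 change was 0.36 with the epithelial covariate (SE 0.41, unadjusted p = 0.394). Another 4 of the 12 protein-coding genes with the largest rise share many words with relatives. These were Dynlt1b (2.51, 86.9% of words shared), C1rb (1.98, 71.4%), Rnaset2a (1.60, 86.1%) and Hmgn2 (1.98, 29.8%), and they are uncertain because reads of copies could be assigned to them.

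Some genes of resident-like macrophages fell. Of 21 tested resident-like macrophage genes 0 rose and 4 fell, while the list's median was 0.06, close to that of all genes. Cbr2, a carbonyl reductase of tissue-resident macrophages, went from 12.37, 12.14 and 12.58 to 10.99, 10.83, 11.18 and 10.97. The days were separated by almost 1 log2 unit, and the fall of 1.37 (SE 0.17, limma adjusted p = 8.35e-04) held and was 1.55 with the epithelial covariate (SE 0.34). Cd163, the scavenger receptor for haptoglobin-haemoglobin complexes, stood at 10.67, 11.18 and 11.46 and then at 9.94 to 10.51 (-0.88, SE 0.24, adjusted p = 0.0375), but passed in only 2 of the 7 leave-one-out fits. Fcgrt, the neonatal Fc receptor, fell by 0.84 (SE 0.16) and held. Of the 21 changes 11 were positive, and the range was -1.37 to 1.17. With quantile normalisation 2 members rose past the threshold and 3 fell. Mrc1, the mannose receptor, is on the alternative activation list and was not separated. It was 11.87 in GSK day 8 library 1, 13.42 and 13.43 in the other early libraries and 12.81 to 13.49 late. Its change was 0.31 with all libraries and -0.21 without GSK day 8 library 1, and passed in neither case.

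Among 18 alternative activation genes 1 rose (Chil3) and 2 fell (Ccl24 and Clec10a), all 3 of which held, with a median of 0.02. Clec10a, a galactose-binding lectin of macrophages and dendritic cells, went from 10.71, 11.46 and 11.28 to between 9.85 and 10.23 (-1.14, SE 0.19, limma adjusted p = 0.00482). Cd209d, a lectin of the DC-SIGN family that was picked out after its values were seen, fell in parallel, from 9.76, 10.16 and 10.55 to between 8.70 and 9.12 (-1.30, SE 0.22), and held. Arg1, arginase, which macrophages use to deplete arginine, was among the most abundant genes on both days, at 13.73, 13.87 and 14.29 and then 13.76 to 13.96, with a change of -0.11 (SE 0.20) that did not pass. Of 15 genes of arginine and polyamine metabolism 0 rose and 0 fell (median 0.06). Spp1, osteopontin, a marker of a tumour macrophage state, was separate between the days, 11.24 to 11.69 and then 11.97 to 12.73, but its change of 0.82 did not pass (SE 0.26, adjusted p = 0.0697). Cd9, a tetraspanin of lipid-associated macrophages, rose by 1.21 (SE 0.33), from 5.38 in GSK day 8 library 1 and 6.67 and 6.69 in the others to between 7.18 and 7.70, and passed in 1 of the 7 leave-one-out fits.

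**Figure D3:**
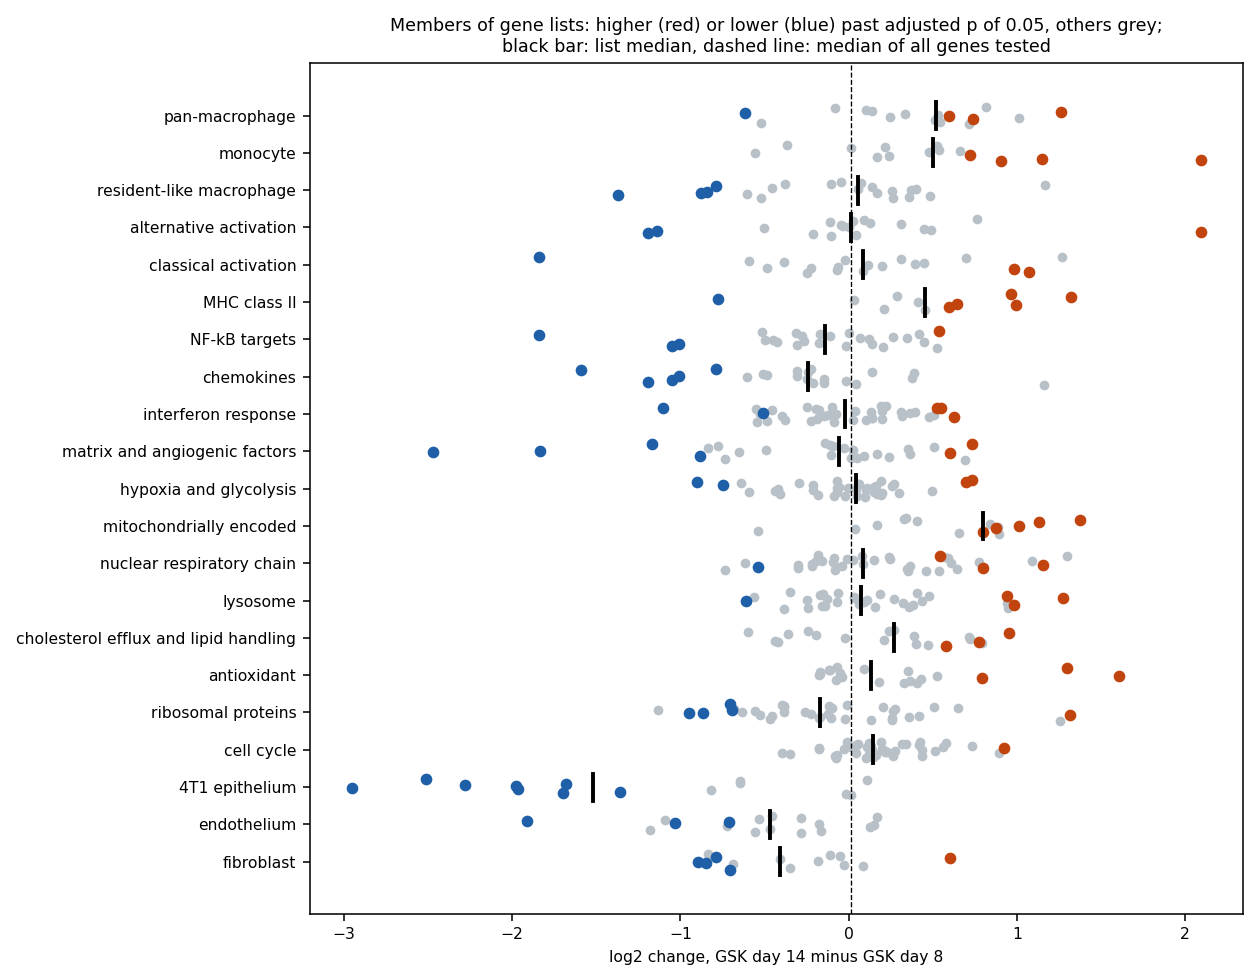
Log2 change from day 8 to day 14 in GSK tumours for each tested member of 21 gene lists; coloured points passed the limma threshold, grey points did not, the black bar is the list median and the dashed line the median of all genes. The epithelial list has the lowest median (-1.52) and the mitochondrially encoded list the highest (0.80), and in most other lists the coloured points are few and lie on both sides.

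Single genes of phagocytosis and the lysosome rose. Of 21 phagocytosis and clearance receptors 3 rose and 1 fell (median 0.18). Havcr2, also called TIM-3, a receptor for phosphatidylserine and an inhibitory checkpoint, stood at 7.60, 7.60 and 7.68 on day 8 and at 8.62, 8.50, 8.63 and 8.94 on day 14. It rose by 1.04 (SE 0.17, limma adjusted p = 0.00472) and held. With the epithelial covariate the change was 0.65, with a wider SE of 0.32. Axl, a receptor tyrosine kinase that recognises dying cells, rose by 0.90 (SE 0.22) and Itgb2, the beta chain of the complement receptor integrins, by 0.93 (SE 0.18), while the integrin Itgb3 fell by 1.04 (SE 0.30). Among 17 checkpoint and co-stimulation genes Havcr2 and Cd86 rose and 0 fell (median 0.09), and Cd274, which encodes PD-L1, changed by -0.36 (SE 0.18) without passing. Of 32 lysosomal genes 3 rose and 1 fell (median 0.08). Mpeg1, the pore-forming perforin-2 of phagosomes, picked out after its values were seen, rose by 0.79 (SE 0.14), from 10.56 to 10.75 to between 11.33 and 11.71, and held.

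Mitochondrially encoded transcripts, most of which carry core subunits of the respiratory chain, had the highest median of the 41 lists. The list also holds the ribosomal RNAs mt-Rnr1 and mt-Rnr2. Of 15 tested 5 rose and 0 fell, 14 changes were positive, and the median was 0.80. The median was 0.01 in the DMSO time course, where 0 passed. In a fit of genes sharing under 10% of their words, 6 members were left, of which 3 rose (median 0.77). The list mean was 10.41, 10.19 and 10.15 in the GSK day 8 libraries. It was 10.69, 10.56, 10.88 and 11.33 on day 14, highest in library 4. mt-Nd6, a complex I subunit on the other strand from most mitochondrial genes, stood at 7.98, 8.21 and 8.12 and then at 9.65, 9.30, 9.18 and 9.78 (1.38, SE 0.20, limma adjusted p = 0.00204), and held. mt-Cytb rose by 0.88 (SE 0.21), from 11.28 to 11.60 to between 11.83 and 12.80, and mt-Co1 by 0.80 (SE 0.20). Except for mt-Nd6 these calls were lost in at least 5 of the 7 leave-one-out fits. A test of the difference between the 2 time courses called 0 of the 15. Among 37 nuclear respiratory chain genes 3 rose (Cox7c, Atp5j and Uqcrfs1), 1 fell (Cox4i1) and the median was 0.09. The share of mitochondrial reads is often read as a sign of cell stress or RNA quality, and its part in other results was not tested.

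Single genes of glycolysis, lipid handling and antioxidant defence passed. Of 38 hypoxia and glycolysis genes 2 rose and 2 fell (median 0.05). Slc2a1, the glucose transporter, rose by 0.70 (SE 0.20), while Slc16a3, the lactate exporter, fell by 0.90 (SE 0.20) and Pfkl, a phosphofructokinase, by 0.75 (SE 0.16). Hif1a, the transcription factor of the hypoxia response, changed by 0.10 (SE 0.12) and did not pass. Of 19 genes of cholesterol efflux and lipid handling 3 rose and 0 fell (median 0.27): the lipid transfer protein Pltp (0.96, SE 0.21), the carnitine transferase Cpt1a (0.78, SE 0.19) and the cholesterol exporter Abca1 (0.58, SE 0.15). Of 20 antioxidant genes 3 rose and 0 fell (median 0.14), namely Mgst1, the thioredoxin Txn1 (1.30, SE 0.29) and glutathione reductase Gsr (0.79, SE 0.17). These calls make up 10.5%, 15.8% and 15% of the 3 lists in turn, against 7.01% of all genes tested, on 3 or 4 calls in each. All of these calls except Mgst1 ended in at least 1 leave-one-out fit.

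Ribosomal protein, immediate-early and actin cytoskeleton genes had calls in both directions. Of 37 ribosomal protein genes 1 rose and 4 fell (median -0.17). Rpl4 rose by 1.32 (SE 0.24) and held, and its change was 0.65 with the epithelial covariate (SE 0.42). Rplp0 (-0.95, SE 0.22) and Rpl8 (-0.86, SE 0.21) fell, with GSK day 8 library 1 the highest of all 7 libraries for both. Of 27 immediate-early and dissociation genes, which also respond to tissue handling, 2 rose (Ier2 and Klf4) and 3 fell (Jund, Hspa1a and Ier5), with a median of 0.05. Jund, a subunit of the AP-1 factor, fell by 1.198 (SE 0.18), from 11.24, 10.75 and 10.73 to between 9.42 and 9.86, and held. Of 41 cell cycle genes 1 rose and 0 fell (median 0.15). That gene was Mcm4, a subunit of the replicative helicase, at 6.26, 6.13 and 6.33 and then at 7.03, 7.22, 7.02 and 7.36 (0.92, SE 0.16, limma adjusted p = 0.00482), and it held. Mki67, the proliferation marker, changed by 0.02 (SE 0.15). Of 28 genes of the actin cytoskeleton and its regulators 3 rose (Actg1, Cfl1 and Myl12b) and 2 fell (Ezr and Rhoc), with a median of 0.14, and none of the 5 held in all leave-one-out fits. Of 24 tRNA synthetase and amino acid response genes 0 passed, and the nearest was Slc3a2, an amino acid transporter chain (0.69, adjusted p = 0.0501).

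Epithelial markers, which the tumour cells express, had the lowest median of the 41 lists. Of 14 tested epithelial markers 8 fell and 0 rose, and their median was -1.52 against 0.01 for all genes. Krt18, a keratin of simple epithelium, was the protein-coding gene with the largest fall under the naming rule. It stood at 10.69, 9.86 and 8.11 on day 8 and at 6.197, 6.85, 6.73 and 6.63 on day 14. The early libraries fell in the order of the epithelial mean and lay further apart than the late ones. The change was -2.95 (SE 0.42, 7.73-fold lower, limma adjusted p = 0.00198). Krt7 (-2.28, SE 0.39), Krt14 (-1.97, SE 0.23), the secreted Wfdc2 (-2.51, SE 0.42) and the tight junction protein Cldn4 (-1.70, SE 0.29) fell too, and these calls and that of Krt18 held. With the epithelial mean, of which these genes are part, as a covariate the 5 changes were smaller (SE 0.34 to 0.43). They were -0.47 for Krt18, -0.19 for Krt7, -1.05 for Krt14, -0.20 for Wfdc2 and -0.23 for Cldn4. Outside the list, the secreted chaperone clusterin, Clu (8.93, 8.01 and 6.76, then 4.58 to 5.65), followed the same order. Its change was -2.67, and it held, and was -0.42 with that covariate (SE 0.44). Epcam, which defines epithelial cells, was near the minimum, 4.51, 4.54 and 3.72 and then 3.39 to 3.51, and missed the threshold (adjusted p = 0.0514). In the DMSO tumours the epithelial mean was 5.33, 5.56 and 6.08 on day 8 and 4.96 to 5.28 on day 14, again without overlap, and 1 of the 14 markers, Cldn7, fell there.

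Some vascular and connective tissue markers fell. Of 17 endothelial markers 3 fell and 0 rose (median -0.47). Plvap, a diaphragm protein of fenestrated vessels, went from 9.34, 8.83 and 7.59 to between 5.99 and 7.05 (-1.91, SE 0.48, limma adjusted p = 0.0287), and Cavin1, a caveolar coat protein outside the list, from 9.43, 8.50 and 7.11 to between 6.22 and 6.67 (-1.91, SE 0.38). Pecam1, which macrophages also express, fell by 0.71 (SE 0.17). Of 15 fibroblast markers 4 fell and 1 rose (median -0.41), among them the collagen chain Col6a3 (-0.90, SE 0.24). None of the endothelial or fibroblast calls held. Each list had 0 calls without GSK day 8 library 1 or 2, and 6 fibroblast and 7 endothelial markers fell without GSK day 8 library 3. The cause of this dependence on single libraries was not tested. Alpha-globin transcripts also fell. Hba-a2 and Hba-a1 count as 1 signal here, since 92.6% of the words of Hba-a2 are in Hba-a1. Hba-a2 went from 7.93, 6.82 and 5.67 to between 4.15 and 5.36 (-1.90, SE 0.49). Of 4 erythroid and platelet genes tested 0 rose and 3 fell (both alpha-globin genes and Pf4), and the beta-globin genes Hbb-bs and Hbb-bt stayed below the minimum in every GSK library. T and NK cell markers showed 0 of 7 past the threshold (median 0.09), with a mean of 5.42 to 5.60 on day 8 and 5.51 to 5.71 on day 14. S100a6, a calcium-binding protein of many cell types picked out after its values were seen, fell from between 11.48 and 12.01 to between 10.34 and 10.76 (-1.27, SE 0.18). It held, and was -0.58 with the epithelial covariate (SE 0.28).

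Transcripts that do not encode proteins were counted by type, against 7.01% of all genes tested. Of 281 processed pseudogenes 20 rose and 11 fell (11%), of 203 lincRNAs 3 rose and 10 fell (6.4%), and of 179 antisense transcripts 0 rose and 8 fell (4.47%). Of 26 snoRNAs 0 rose and 8 fell (30.8%), but 4 of the 8, Rnu3b1 to Rnu3b4, carry identical values, so that the 8 calls are 5 separate signals. The lincRNA Gm10522 fell from 9.52, 9.49 and 9.64 to between 7.40 and 8.22 (-1.68, SE 0.20, limma adjusted p = 5.34e-04), and held. The antisense transcript Gm45606 fell from 9.82, 9.33 and 9.34 to between 7.85 and 8.20 (-1.49, SE 0.17) and held. It was -0.96 with the epithelial covariate (SE 0.29). The strand setting of the counting is not given in the sources used here, so reads of antisense transcripts and their partners cannot be told apart. Among pseudogenes, Rps2-ps6 was at 2.51 to 3.02 on day 8 and at 8.40, 2.61, 9.79 and 9.26 on day 14, so that 1 late library was as low as the early ones. Other genes hold 93.9% of its words, and its reads may belong to them.

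The same days were compared in tumours of DMSO-exposed cells, with no library in common. There 98 genes passed (0.824% of those tested), 36 higher (0.303%) and 62 lower (0.522%). Of the 833 genes called in GSK tumours, 746 (89.6%) had the same sign in DMSO tumours, against 66.0% of all genes tested. Their median size was 0.78 in GSK tumours and 0.31, taken in the GSK direction, in DMSO tumours, and 781 of them had the larger change in GSK tumours; the genes were chosen on the GSK values, which favours that order. The 55 genes called in both courses, 6.60% of the GSK calls and 56.1% of the DMSO calls, all had the same sign. Mmp9 fell by 2.05 in DMSO tumours, Pgf by 1.56, Inhba by 1.06, Cxcl5 by 1.79, Ccl24 by 0.95 and Cd163 by 1.78, and these passed there too. Pid1, Mpeg1, Axl, the receptor Tlr2 and the nuclear receptors Nr4a2 and Nr4a3 rose in both. Tnf (-0.81), Cbr2 (-0.64), Csf2ra (0.43), Lyz2 (0.21) and Chil3 (0.86) did not pass in DMSO tumours.

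**Figure D4:**
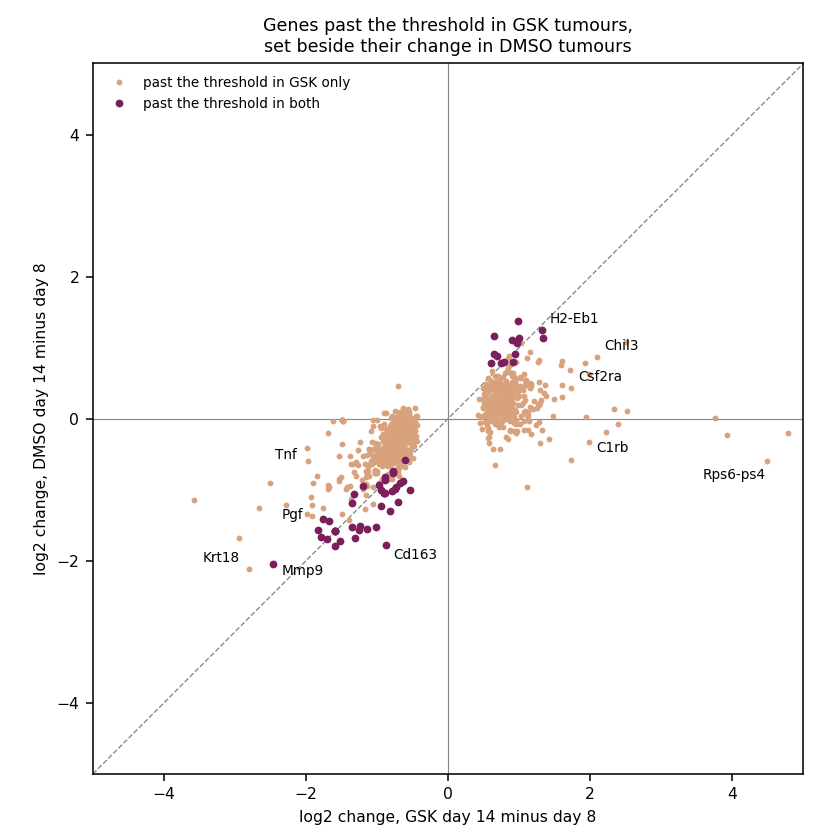
Log2 change from day 8 to day 14 in GSK tumours (x axis) and in DMSO tumours (y axis) for the 833 genes past the threshold in GSK tumours; dark points, 55 genes, also passed in DMSO tumours, and the dashed line marks equal change. Most points have the same sign on both axes and lie nearer the x axis than the line, and Rps6-ps4 stands apart at 4.49 and -0.60.

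Whether a gene changed differently in the 2 settings was tested directly, and 1 gene passed (0.00841% of those tested; limma, 987 at an unadjusted p under 0.05). It was Rps6-ps4, a processed pseudogene at chr2:75191073-75191822 of GRCm38, which stood at 5.47, 6.44 and 6.07 on GSK day 8 and at 10.67, 10.20, 10.40 and 10.65 on GSK day 14. In DMSO tumours it stayed between 3.69 and 5.12, so only the GSK day 14 libraries were high. Its change was 4.49 (SE 0.25, held) in GSK and -0.60 in DMSO tumours, a difference of 5.09 (SE 0.36, adjusted p = 1.86e-06). All of its 720 words of 31 bases are found in Rps6, the parent gene, which was at 12.26 to 12.50 in all 7 GSK libraries and changed by -0.12 (SE 0.13). The reads behind the pseudogene value cannot be told apart from those of Rps6. Genes described above did not pass this test: for Csf2ra it was 1.29 (SE 0.37, adjusted p = 0.504), for Tnf -1.03 (SE 0.28, adjusted p = 0.504), for Lyz2 1.06 (SE 0.33, adjusted p = 0.504) and for Cbr2 -0.73 (SE 0.25, adjusted p = 0.511). For Mmp9 it was -0.42 (SE 0.30, adjusted p = 0.706). The next smallest p of an upward difference was that of Cxxc1, a chromatin protein that binds unmethylated CpG, with a difference of 1.32 (SE 0.22, adjusted p = 0.131), from 0.67 in GSK and -0.65 in DMSO tumours.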

How the data were processed

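RNA from F4/80+ fractions was sequenced by the submitters, and per the submitters' processing notes the tools were DESeq2 1.12.4, RSEM 1.2.29 and Bowtie2, and the builds GRCh38 and mm10. The authors deposited normalised values on a log2 scale, and the transformation is not given in the sources used here, so the depth is unknown, no counting intervals can be given, and changes of low genes may be understated. Gene names, types and GRCm38 coordinates came from GENCODE by identifier (24470 of 24556 matched). Genes with an unlogged value of at least 10 in at least 3 libraries were fitted with limma 3.58.1 in R 4.3.3 (4 group means over all 14 libraries, empirical Bayes with trend, two-sided, Benjamini-Hochberg adjustment over 11886 genes, threshold 0.05). SE is the standard error of that fit. The fit was tested on simulated data with independent errors and 1 spread per gene. Spread differs between the groups here: the SD of the epithelial mean was 0.617 on GSK day 8 and 0.091 on GSK day 14. The simulation therefore does not show how far the calls hold in these data. Each gene's share of 31-base words found in other genes was counted from the transcripts.

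The named genes were up to 12 protein-coding genes higher and 12 lower with the largest change past the threshold, an unlogged mean of at least 50 and separate libraries, numbered models left out; up to 4 members in each direction of 41 gene lists; and 13 genes always given. The text gives part of the list members, chosen after their values were seen, and some genes that the rule picked are not reported here. The comparison, lists and rules were all chosen with earlier results of these data known. Replicate numbers of the labels were not treated as pairs, because same-numbered libraries did not deviate together in every pair. That does not exclude pairing. Alternatives covered pseudocounts, filters, rescaling, weights, the replicate block, the ribosomal RNA split, the epithelial mean as a covariate, GC content, shared words and leaving out each library; their effect is given in the closing section.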

Additional observations from a re-analysis of the deposited data

Results flagged for a closer look

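In 139 sets of 4 values, the GSK day 14 libraries for each gene and marker list described, 1 library stood far from the other 3 in 5 sets by Dixon's criterion, and chance alone would give about 1 in 20. GSK day 14 library 4 was high for Ccr2 (10.09, the others 9.71 to 9.76), Ctss (15.08, the others 14.83), Itgb2 (10.16, the others 9.71 to 9.75) and Slc3a2 (11.06, the others 10.80 to 10.84). GSK day 14 library 2 was high for Pf4 (12.34, the others 12.05 to 12.08). Of the 7 leave-one-out fits, Ccr2 passed in 2, Ctss in 1, Itgb2 in 6 and Pf4 in 1.

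The change from day 8 to day 14 differed between pre-treatments for Rps6-ps4 by 5.09 on the log2 scale (4.49 in GSK and -0.60 in DMSO tumours). This gene shares all of its 31-base words with Rps6.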

How the results depend on the processing

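In GSK tumours 833 genes passed, and 769 to 906 did with other pseudocounts, a minimum of 50, quantile or TMM rescaling, no trend, GC trend removed or only genes sharing under 10% of their words (the last chosen after the data were seen). The number was 257 with no filter, 3523 with library quality weights, 1517 when only the GSK groups were fitted, 471 with a term for the ribosomal RNA split, 290 in libraries with AY036118 higher and 1 with the epithelial mean as a covariate; leaving out 1 library gave 112 to 1218. With the replicate number as a block 301 passed, 297 of them among the 833. Of 19 same-numbered pairs, 5 had a correlation of deviations above 0.1. Deviations within such small groups cannot decide whether the numbers pair the libraries. In DMSO tumours the 98 became 30 with no filter, 19 with weights, 22 with only the DMSO groups, 26 with AY036118 higher, 3 with the covariate, 65 with the block, and 24 to 305 with 1 library left out. The test of the difference gave 4 with the replicate block and 1 to 12 with 1 library left out. It gave 0 among genes sharing under 10% of words (limma, 824 at an unadjusted p under 0.05). That filter removes Rps6-ps4, the only gene called in the main fit, before testing. These fits differ in genes, libraries and error model, and for the weights, the split and the covariate the cause was not tested.

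Of the 132 genes followed singly, signs turned as follows, and the cause was not tested. With the epithelial covariate, Krt19 became 0.20, Cavin1 0.015, Plvap 0.60, Hba-a2 0.25, Epcam 0.41, Ifi30 -0.23, Cpt1a -0.0092, Slc3a2 -0.057, Adgre1 -0.18, Mrc1 -0.20 and Nos2 -0.095. Among small changes that did not pass, Arg1 became 0.10 and Mki67 -0.013 with quantile normalisation, Mrc1 -0.077 with weights and -0.21 with AY036118 higher, and with the GC trend removed Tgfb1 became 0.0009, Mki67 -0.031 and Rps6 0.025. With 1 library left out, Mrc1 ran from -0.21 to 0.57, Arg1 from -0.22 to 0.058, Ccl2 from -0.62 to 0.20, Mki67 from -0.10 to 0.15 and Tgfb1 from -0.071 to 0.055. Depth is unknown, so what it limits could not be assessed.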
